A study of Mus musculus with 4 samples.

Results

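The genes described here are those of 2 signalling systems by which somatic cells of the embryonic gonad reach germ cells: Kitl and its receptor Kit, and Cxcl12 with its receptors Cxcr4 and Ackr3. They are 5 of the 31053 genes in the feature tables and were taken by symbol. Their unique molecular identifier (UMI) counts were summed over the cells of 5 marker gates in each library. The germ gate held cells with UMIs of at least 2 of the 3 germ cell genes Pou5f1, Dppa3, and Dazl. The other gates held cells with at least 1 UMI of Sox9, a gene of Sertoli cells and their precursors, of Pdgfra, a receptor gene of mesenchymal and interstitial cells, of Upk3b, a gene of mesothelium and coelomic epithelium, or of Cdh5, a cadherin gene of endothelial cells.

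KIT is a receptor tyrosine kinase, and KITL (stem cell factor), made by somatic cells in membrane-bound and shed forms, keeps primordial germ cells (PGCs) alive and motile as they enter the gonad. CXCL12 is a chemokine that draws PGCs toward the genital ridge through CXCR4, a G protein–coupled receptor on the germ cell. ACKR3, formerly CXCR7, also binds CXCL12, but mainly takes it up and clears it, which shapes the amount around the cells.

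The study derived testicular somatic cells from mouse XY embryonic stem cells (ESCs) and set them beside embryonic gonads. The series gives 1 library for each of 4 conditions: gonads of XY ICR embryos, taken at E10.5, E11.5, or E12.5, and the ESC-derived cells at day 6 of culture (D6). The E10.5 library also took in mesenchyme dorsal to and around the gonad, whereas the mesonephros was taken away at E11.5 and E12.5. The D6 cells came from 1 reporter line, with hCD271 at Nr5a1 and CGFP at Sox9, that the labels place on C57BL/6J and the study's methods on a cross of 129X1/SvJ with C57BL/6J; epiblast-like cells were aggregated with CHIR99021, BMP4, and EGF, then treated with retinoic acid, Sonic hedgehog, PD0325901, EGF, and BMP4, and last with BMP4, FGF9, and the Wnt inhibitor IWR1. Cells positive for Nr5a1-hCD271 were enriched on magnetic beads, but by the study's account they were still not the majority of the enriched cells. No germ cells were added, and a later version of the reagent kit was used than for the gonads.

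After the study's limits on detected genes and mitochondrial UMIs, the 3 gonad libraries, from the youngest to the oldest, kept 3837, 2101, and 2764 cells, with a median of 8167, 11926, and 10946 UMIs per cell. The D6 library kept 2285 cells, with a median of 4607. Barcodes were shared only among the in vivo libraries, by 7 to 15 retained cells per pair. Since each condition had 1 library, differences between conditions have no replicate error and were not tested. Levels are given in CPM, the gene's UMIs per 1000000 UMIs of the same cells, and all intervals are at 95% and cover counting error only. Strain, kit, culture, and sorting all separate D6 from the gonads and cannot be told apart.

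In the order E10.5, E11.5, E12.5, D6, the germ gate held 9, 196, 451, and 2 cells, and a gate of under 20 cells was not compared with another. The Sox9 gate held 786, 768, 905, and 292 cells in the same order, the Pdgfra gate 917, 633, 1103, and 604, the Upk3b gate 311, 308, 257, and 186, and the Cdh5 gate 53, 51, 59, and 21. A cell could be in several gates, as were 219 cells with both Sox9 and Pdgfra at E11.5 and 259 at E12.5. At D6, 57.6% of cells were in no gate, against 15.7% at E12.5.

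The gates were checked with marker lists that leave the gate genes out. All 7 germ cell markers were higher in the germ gate than in the other cells at E11.5 and E12.5. The 6 Sertoli cell markers, among them Amh and Dhh, summed to 2074 CPM in the E11.5 Sox9 gate, 5674 in that of E12.5, and 617 in that of D6, and each of the 6 was higher inside the gate in these libraries. At E10.5 that sum was 26 and 2 of the 6 were higher inside, so the Sox9 gate of E10.5 is called here by its gene only. In these same libraries the 6 interstitial markers were all higher in the Pdgfra gate, the 6 endothelial markers in the Cdh5 gate, and the 5 coelomic epithelium markers in the Upk3b gate. The Sox9 gate of D6 held interstitial markers at 1328 CPM, above its Sertoli cell sum, and that of E12.5 held them at 324. Of these 6 markers, 0 were higher inside the Sox9 gate in either library. The study marks supporting-like cells by Pax8 and cites a report that they express Sox9. A list of Pax2, Pax8, and Cdh16 summed to 32.4 CPM in the Sox9 gate of D6 and 4.79 in that of E12.5. Of these 3 genes, 2 were higher inside the gate in each library. A ratio between these 2 Sox9 gates thus does not set cells alike in markers against each other. The Cdh5 gate also held markers of other cells. At E11.5 its endothelial markers summed to 1461 CPM, its Sertoli cell markers to 549, and its germ cell markers to 476, and at E12.5 these sums were 1185, 1273, and 396. Of its cells, 5 were in the germ gate in each of these libraries, and 8 of 51 and 13 of 59 in the Sox9 gate, so its values are given as those of a gate and, where cells with another marker hold much of them, also without those cells.

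All 5 genes are protein coding, and the positions given are on GRCm38. Kitl (ENSMUSG00000019966) lies on chromosome 10 from 100015630 to 100100416, Cxcl12 (ENSMUSG00000061353) on chromosome 6 from 117168535 to 117181367, and Kit (ENSMUSG00000005672) on chromosome 5 from 75574916 to 75656722, all on the plus strand. Cxcr4 (ENSMUSG00000045382) lies on chromosome 1 from 128588199 to 128592293 on the minus strand, and Ackr3 (ENSMUSG00000044337) on the same chromosome from 90203980 to 90216751 on the plus strand. The longest transcript models hold 21 exons for Kit, 10 for Kitl, 4 for Cxcl12, 3 for Ackr3, and 2 for Cxcr4. The core promoters are shown as windows around 1 annotated start of transcription of each ligand and receptor. They run from 80 bases before to 20 after the RefSeq start site on GRCm38.p6, 5′ to 3′ on the strand of the gene. That site lies 191 bases from the gene start given above for Kitl, 71 for Kit, 6 for Cxcr4, and 0 for Cxcl12 and Ackr3. Kit has 2 RefSeq start sites, of which 75574987 was used and 75574991 was not. Capitals mark matches to TATAAA, the letters of a TATA box, or to GGGCGG, those of a GC box, each on both strands, where matches may overlap.
Kitl, chr10:100015741-100015840, plus strand: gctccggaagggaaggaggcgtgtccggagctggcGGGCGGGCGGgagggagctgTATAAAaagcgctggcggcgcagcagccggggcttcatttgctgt
Cxcl12, chr6:117168455-117168554, plus strand: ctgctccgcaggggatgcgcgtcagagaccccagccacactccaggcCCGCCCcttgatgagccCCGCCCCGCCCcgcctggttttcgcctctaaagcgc
Kit, chr5:75574907-75575006, plus strand: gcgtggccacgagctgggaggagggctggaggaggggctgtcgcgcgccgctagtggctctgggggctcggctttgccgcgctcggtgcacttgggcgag
Cxcr4, chr1:128592280-128592379, minus strand: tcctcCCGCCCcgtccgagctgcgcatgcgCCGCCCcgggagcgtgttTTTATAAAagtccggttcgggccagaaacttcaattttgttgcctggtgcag
Ackr3, chr1:90203900-90203999, plus strand: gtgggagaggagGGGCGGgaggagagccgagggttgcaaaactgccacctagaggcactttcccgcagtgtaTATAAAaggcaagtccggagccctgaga
TATAAA was present in the windows of Kitl, Cxcr4, and Ackr3, where it began 25, 30, and 8 bases before the start site, and in 5.31% of 32851 windows of the same length over all genes. GGGCGG was present in the windows of Kitl, Cxcl12, Cxcr4, and Ackr3, and in 24.4% of all windows. The Kit window held neither, which says only that these letters are not in it. The reads count the 3′ ends of transcripts and do not bear on these start sites.

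Kitl was highest in Sox9-positive cells of the E11.5 and E12.5 gonad and of D6, and in the Cdh5 gate of D6. From E10.5 to E12.5 the Sox9 gate measured 26.3 (22.8 to 30.3), 132 (125 to 139), and 152 CPM (144 to 159), and at D6 it measured 150 (132 to 169). E10.5 was thus the low library, by 5.00-fold against E11.5, and E12.5 and D6 were not separated with total UMIs, with a log2 ratio of D6 to E12.5 of -0.02 (-0.21 to 0.17). D6 was lower by -0.35 (-0.54 to -0.16) with TMM factors and by -0.38 (-0.62 to -0.15) in cells of the Sox9 gate alone, so this order too depended on the setting. The ratio of E12.5 to E11.5 was 0.20 (0.10 to 0.31) on the log2 scale with total UMIs and 0.10 (-0.01 to 0.21) with TMM factors, so the order of these neighbours was not settled. The share of Sox9-gate cells with a Kitl UMI was 62.7% at E12.5 and 47.9% at D6, and after each cell was thinned to 2000 UMIs it was 26.5% and 24.7%.

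In the Pdgfra gate Kitl took another course. The 3 gonad stages gave 23.2 (20.0 to 26.7), 57.5 (52.5 to 62.8), and 20.4 CPM (18.0 to 23.0) in order of age, and D6 gave 77.5 (68.2 to 87.8). E11.5 and D6 were the high libraries here, and E10.5 and E12.5 did not differ beyond counting error, with a log2 ratio of E12.5 to E10.5 of -0.19 (-0.46 to 0.09). In cells of the Pdgfra gate alone E12.5 was the lower, by -0.83 (-1.25 to -0.42), as it was with at least 2 Pdgfra UMIs, by -0.95 (-1.42 to -0.46), and after Scrublet removal of doublets, by -0.32 (-0.61 to -0.03). In the Upk3b gate the values of the 4 libraries were 36.1, 28.9, 11.01, and 42.7 CPM, with E12.5 the lowest. D6 and E10.5 were not separated, with a log2 ratio of 0.24 (-0.26 to 0.73), or 0.43 (0.00148 to 0.85) with 1 set of cell limits. Cdh5-gate cells gave 41.0, 59.7, 77.4, and 261 CPM (190 to 351), the last from 44 UMIs of 21 cells, 42 of them in the 17 cells with no other gate's marker, and, within that library, above the Sox9 gate of D6 by 0.80 (0.31 to 1.27) on the log2 scale.

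At E10.5 the Sox9 gate was 1.14-fold over the Pdgfra gate (0.93 to 1.39), a difference within counting error. The fold was 2.29 (2.06 to 2.55) in the E11.5 library, 7.44 (6.52 to 8.52) in that of E12.5, and 1.93 (1.62 to 2.31) in that of D6. UMIs of cells with both markers enter both gates, so these intervals are approximate. At E11.5 cells of the Sox9 gate alone gave 164 CPM and those of the Pdgfra gate alone 36.3. When cells with both markers were left out, Kitl was 199 CPM in Sox9-only and 11.2 in Pdgfra-only cells at E12.5, a 17.7-fold difference, and 146 against 61.7 at D6, a 2.37-fold difference. At E12.5, 74.9% of all Kitl UMIs came from cells in the Sox9 gate alone, which were 22.0% of cells. At E11.5 that part was 50.2% from 22.8% of cells, and at D6 14.6% from 8.10% of cells. Cells of no gate held 56.2% at D6, near their share of 57.6% of cells. Their level was 102 CPM, above the 77.5 of the Pdgfra gate of D6.

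Germ cells held little Kitl. The germ gate had 46 UMIs at E11.5, or 15.0 CPM (10.97 to 20.0), and 12 at E12.5, or 1.39 (0.72 to 2.43). The E11.5 value came from 12 of 196 cells, 1 of which held 16 UMIs. It was 8.59 in germ-gate cells with no other gate's marker and 2.82 where all 3 germ genes were asked for. At E10.5 no Kitl UMI was seen in 9 germ-gate cells, which allows up to 21.7 CPM.

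**Figure D1:**
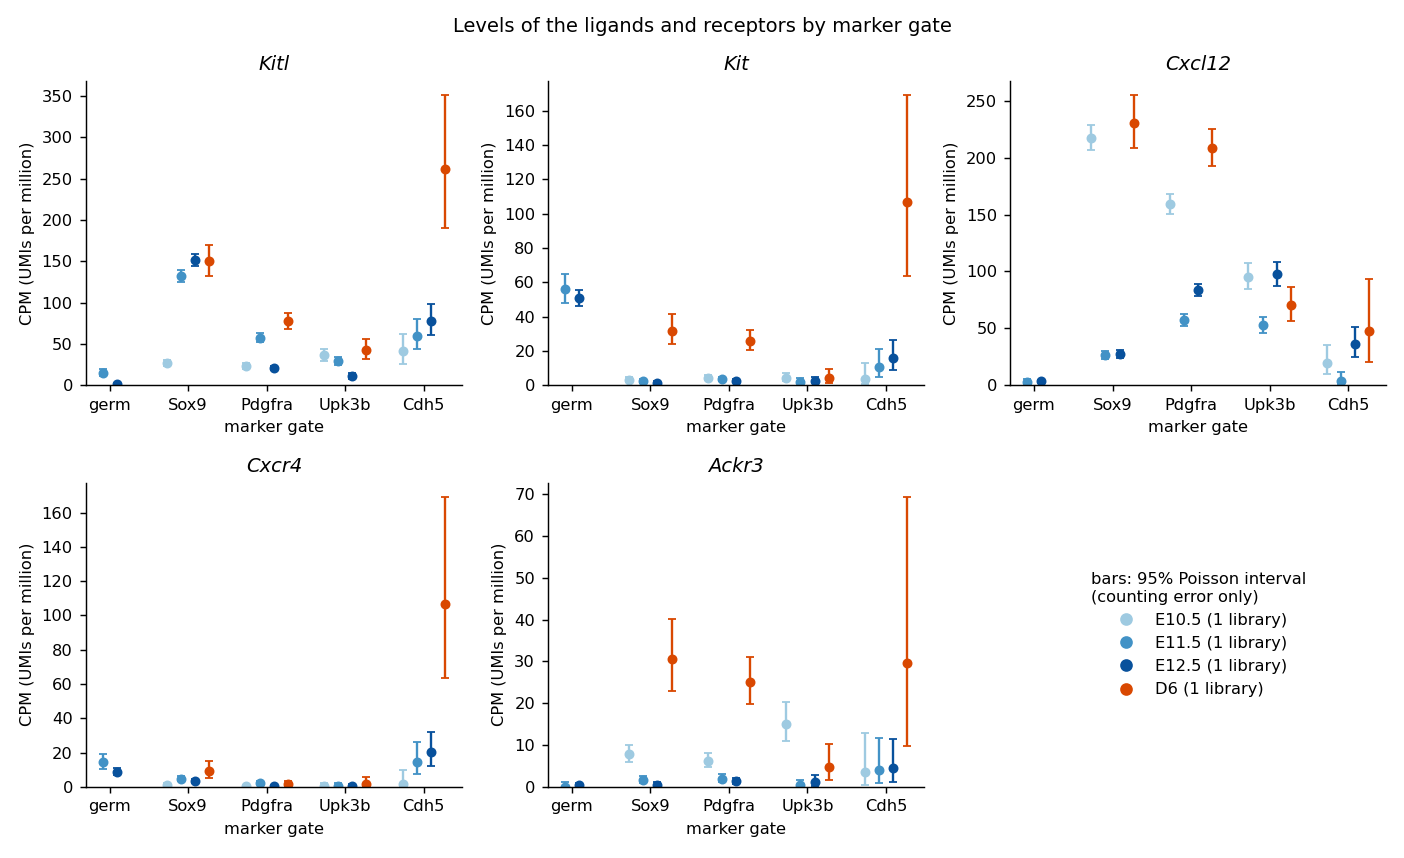
Level of each gene (vertical axis, CPM, linear) in each marker gate (horizontal axis), with 1 point per library and the exact 95% Poisson interval as a bar; gates under 20 cells are left out. Kitl stands at 132 to 152 in the Sox9 gates of all libraries but E10.5, Kit at 56.0 and 50.7 in the germ gates, and Cxcl12 at 218 and 231 in the Sox9 gates of E10.5 and D6 against 26.3 and 27.1 at E11.5 and E12.5.

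Between E10.5 and the later gonad stages Cxcl12 went the opposite way from Kitl in Sox9-positive cells, whereas at D6 both were high. E10.5 gave 218 CPM (207 to 228), E11.5 and E12.5 gave 26.3 (23.2 to 29.7) and 27.1 (24.1 to 30.5), and D6 gave 231 (209 to 255). E10.5 and D6 were the high libraries. Their own order was not settled: the log2 ratio of D6 to E10.5 was 0.09 (-0.08 to 0.25) with total UMIs, -0.23 (-0.39 to -0.07) with TMM factors, and 0.35 (0.14 to 0.56) in cells of the Sox9 gate alone. E12.5 and E11.5 were not separated, with 0.04 (-0.20 to 0.29), but in cells of that gate alone E12.5 was the lower, by -0.50 (-0.98 to -0.02). The ratio of E12.5 to E10.5 was -3.00 (-3.19 to -2.82) and that of D6 to E12.5 3.09 (2.87 to 3.31) on the log2 scale. The Sertoli cell markers of the same cells were lowest at E10.5, then D6. The part of the mesenchyme around the E10.5 gonad in its value was not tested.

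In the Pdgfra gate the gonad stages gave 159 (151 to 168), 57.2 (52.2 to 62.6), and 83.6 CPM (78.7 to 88.8), and D6 gave 208 (193 to 225), each interval apart from the others. In cells of the Pdgfra gate alone the gonad stages gave 107, 68.8, and 92.2 CPM and D6 201, so E10.5 and E12.5 lay much closer there. In the Upk3b gate they gave 95.3 (84.3 to 107), 52.8 (46.1 to 60.1), and 97.4 CPM (87.5 to 108), and D6 gave 70.4 (56.6 to 86.7). D6 was the highest of the 4 libraries in Pdgfra-positive cells, yet below E12.5 in Upk3b-positive cells, by -0.47 (-0.82 to -0.13) on the log2 scale. After thinning, 31.8% of D6 cells in the Pdgfra gate held a Cxcl12 UMI and 15.7% of E12.5 cells, where the unthinned shares were 47.4% and 44.8%.

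Germ cells were the lowest for this chemokine in the E12.5 gonad. The germ gate gave 2.93 CPM at E11.5 (1.34 to 5.56) and 3.24 at E12.5 (2.15 to 4.69). The Cdh5 gate gave 19.6, 3.98, 35.9, and 47.5 CPM from E10.5 to D6, on 11, 3, 32, and 8 UMIs, and was not separated from the germ gate at E11.5 nor from the Sox9 gate at E12.5. Most of these UMIs lay in cells with another gate's marker, and the cells of the Cdh5 gate alone held 2, 1, 6, and 0 of them, or 4.13, 2.14, 12.3, and 0 CPM. Against the germ gate, the Pdgfra gate of E12.5 was higher by 4.69 (4.15 to 5.29) on the log2 scale.

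Cells of no gate gave 34.2%, 31.9%, and 17.7% of the Cxcl12 UMIs in the gonad libraries by age, and 47.8% at D6. They were 54.1%, 26.6%, and 15.7% of the gonad cells and 57.6% of the D6 cells. Their part of the UMIs was thus under their share of cells at E10.5 and D6. Cells in the Pdgfra gate alone gave 43.5% at E12.5, from 26.6% of cells. Erythroid cells, taken as cells with at least 10% globin UMIs, serve as a background for the ligands: of 51 such cells at E10.5, with a median of 17203 UMIs, 1 held a Cxcl12 UMI and 0 a Kitl UMI, and of 21 at E11.5 none held either. E12.5 had 1 erythroid cell and D6 had none, so this background was not available in these libraries.

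**Figure D2:**
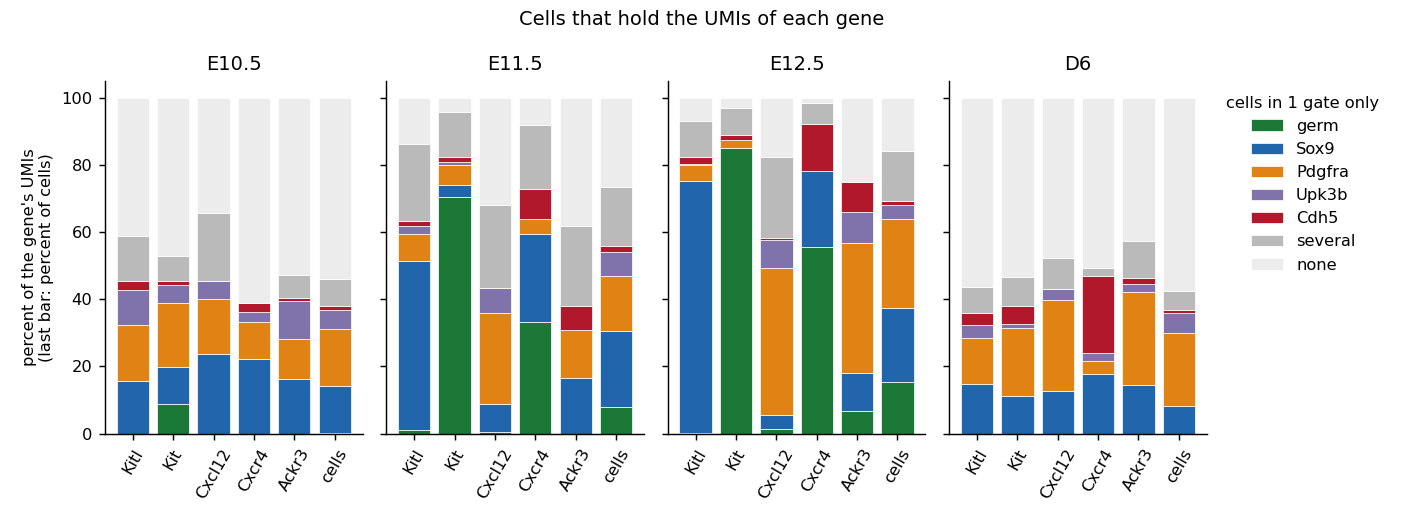
Percent of each gene's UMIs (vertical axis) that lie in cells of 1 gate only, of several gates, or of no gate, for each library, with the percent of cells in the last bar. At E12.5, 74.9% of Kitl UMIs lie in cells of the Sox9 gate alone (22.0% of cells). The germ gate alone (15.3% of cells) holds 85.0% of Kit UMIs. At D6 cells of no gate hold 56.2% of Kitl and 53.4% of Kit UMIs, near their share of 57.6% of cells.

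Among the 5 genes Kit had the largest excess in the germ gate over other cells at E11.5 and E12.5. The germ gate held 172 UMIs at E11.5, or 56.0 CPM (48.0 to 65.0), and 438 at E12.5, or 50.7 CPM (46.1 to 55.7), so the stages did not differ beyond counting error. All other cells together gave 2.04 (1.48 to 2.74) and 1.68 CPM (1.22 to 2.27), which makes the log2 ratio 4.78 (4.29 to 5.29) and 4.91 (4.46 to 5.40). The 9 germ-gate cells of E10.5 held 12 Kit UMIs, in 7 of the 9 cells.

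The share of germ-gate cells with a Kit UMI was 48.0% and 64.1% at these stages, but 9.68% and 8.20% after thinning to 2000 UMIs, so no order of the stages is read from the shares. The germ gate was also the deepest, with a median of 17277 and 18639 UMIs per cell. No Kit UMI was seen in the 51 erythroid cells of E10.5 or the 21 of E11.5, which allows up to 5.88% and 14.3% of cells with a UMI. At E12.5, 85.0% of Kit UMIs lay in cells of the germ gate alone, 15.3% of cells, and at E11.5 70.4%, from 7.85%.

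In somatic cells of the gonad Kit was low, and at E11.5 and E12.5 the Cdh5 gate was the highest of them. With age the Sox9 gate measured 3.26, 2.32, and 1.50 CPM, the Pdgfra gate 4.08, 3.33, and 2.61, and the Upk3b gate 4.20, 2.08, and 2.48. The Cdh5 gate measured 3.57 on 2 UMIs, 10.6 (4.58 to 20.9), and 15.7 CPM (8.59 to 26.4). Germ-gate cells lay among the Cdh5-gate cells of the last pair, as given above, and cells in the Cdh5 gate alone held 3 of its 8 Kit UMIs in the first and 8 of 14 in the second, or 6.43 and 16.4 CPM.

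At D6 Kit was present in somatic cells. The Sox9 gate measured 31.8 CPM (24.0 to 41.4), the Pdgfra gate 25.9 (20.7 to 32.2), cells of no gate 24.2 (20.6 to 28.3), and the Upk3b gate 3.96 (1.28 to 9.23), while the 21 cells of the Cdh5 gate held 18 UMIs, or 107 (63.4 to 169), 16 of them in the 17 cells of that gate alone. The first 3 were not separated, whereas Upk3b-positive cells were lower than the Pdgfra gate by -2.71 (-4.37 to -1.43) on the log2 scale. Against E12.5 the log2 ratio was 4.40 (3.58 to 5.31) in the Sox9 gate, 3.32 (2.72 to 3.94) in the Pdgfra gate, and 3.86 (3.40 to 4.36) over all cells outside the germ gate.

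Overlap between gates bears on the E12.5 side of that ratio. The 607 cells of E12.5 in the Sox9 gate alone held 0 Kit UMIs, which allows up to 0.44 CPM, taken as 3 UMIs over the group. The 185 of D6 held 33, or 31.3 CPM (21.6 to 44.0). That value is 70.4-fold the limit, a fold that leaves out the counting error of D6. After thinning, a Kit UMI was found in 6.19% of D6 cells in the Sox9 gate and in 0.11% at E12.5, where the unthinned shares were 14.4% and 1.10%.

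The 214 Kit-positive cells of D6 outside the germ gate were looked at with the marker lists, a choice made after their number was known. Germ cell markers summed to 20.2 CPM in them and 30.2 in the Kit-negative cells, and 2 of the 214 held at least 2 of these markers. Endothelial markers summed to 298 and 62.2, and 12 cells held at least 2. Interstitial markers were present in both at 1536 and 1564, and blood progenitor or mast cell markers at 25.9 and 39.5. Macrophage and erythroid markers were at 0 in the Kit-positive cells, and neural crest, melanoblast, or Schwann cell markers at 2.4. At least 2 interstitial markers were held by 53.3% of the Kit-positive and 66.8% of the Kit-negative cells. Sertoli cell markers summed to 67.1 CPM in the positive and 204 in the negative cells, and coelomic epithelium markers to 67.1 and 154.

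Cxcr4 was sparse, and was highest in the germ and Cdh5 gates of the gonad. The germ gate measured 14.3 CPM at E11.5 (10.4 to 19.2) and 8.80 at E12.5 (6.94 to 11.02), on 44 and 76 UMIs, the later stage lower by -0.70 (-1.26 to -0.13) on the log2 scale. Against all other cells the log2 ratios were 2.20 (1.62 to 2.77) and 2.11 (1.58 to 2.65). The Cdh5 gate measured 14.6 (7.28 to 26.1) and 20.2 CPM (12.0 to 31.9), of which cells with no other gate's marker held 10 of 11 and 18 of 18 UMIs. It was not separated from the germ gate in the younger library and was 2.29-fold above it (1.29 to 3.87) in the older.

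Among the other cells, those with Sox9 held more of this receptor than those with Pdgfra. The Sox9 gate measured 4.64 CPM (3.40 to 6.19) and the Pdgfra gate 2.38 (1.45 to 3.67) at E11.5, and the values at E12.5 were 3.19 (2.21 to 4.46) and 0.47 (0.17 to 1.03). The log2 ratio at E12.5 was 2.75 (1.48 to 4.30), and at D6, with 9.26 and 1.56, it was 2.57 (1.05 to 4.37). The Upk3b gate held 1, 3, 1, and 2 Cxcr4 UMIs from E10.5 to D6. Of the 38 Cxcr4-positive cells of E12.5 outside the germ gate, 28 held at least 2 Sertoli cell markers and 4 held at least 2 interstitial markers. Of the 60 at D6, 19 held at least 2 Sertoli cell markers, 31.7% against 7.1% of the Cxcr4-negative cells.

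At E10.5 the gene was near its limit, with 36 UMIs in all cells, and 0 in the 9 germ-gate cells, which allows 21.7 CPM. Of the 33 positive cells there, 7 held at least 2 neuronal markers, and these markers summed to 1467 CPM in the positive cells against 111 in the negative cells. The Cdh5 gate of D6 had 18 Cxcr4 UMIs in 5 of 21 cells, or 107 CPM (63.4 to 169), 5.29-fold above the Cdh5 gate of E12.5.

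Ackr3 was not a germ cell gene in these data. The germ gate held 0 UMIs at E11.5, which allows up to 0.98 CPM, and 3 at E12.5, or 0.35 (0.07 to 1.01). From E10.5 on, the Sox9 gate of the gonad gave 7.73 (5.86 to 10.0), 1.61 (0.92 to 2.62), and 0.47 CPM (0.15 to 1.10), and that of D6 gave 30.7 (23.0 to 40.1). In the Pdgfra gate the values were 6.24 (4.66 to 8.19), 1.90 (1.09 to 3.09), and 1.34 CPM (0.78 to 2.15), and at D6 25.0 (19.8 to 31.1). The order was the same in both gates, with D6 highest and E10.5 next, and E11.5 and E12.5 were not separated in the Pdgfra gate.

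Upk3b-positive cells departed from this order. E10.5 gave 15.1 CPM (10.9 to 20.3), and the other libraries 0.46, 1.10, and, for D6, 4.75 (1.74 to 10.3), on 2, 4, and 6 UMIs. Here E10.5 was the highest library. Cells of the Cdh5 gate alone gave 4.13, 6.43, and 8.20 CPM of Ackr3 in the gonads by age and 28.1 at D6. These values rest on 2, 3, 4, and 4 UMIs. Within E12.5 the Sox9 gate had 5 Ackr3 UMIs and the Pdgfra gate 17, a log2 ratio of -1.52 (-3.31 to -0.02) whose interval ended close to 0.

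In the gonad some of this receptor lay in erythroid cells, which therefore gave no background for it. The 21 erythroid cells of E11.5 held 13 of the 42 Ackr3 UMIs of that library, or 38.6 CPM (20.6 to 66.1), and 9 of them were positive. The 51 of E10.5 held 8 UMIs, or 8.83 CPM (3.81 to 17.4), close to 8.74 over all cells outside the germ gate. These cells were looked at as a background and the excess was noticed after the values were seen. E12.5 held 1 erythroid cell and D6 held none.

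The difference between D6 and E12.5 is shown gate by gate for all 5 genes. Among genes with at least 10 CPM in the higher group and 20 UMIs over both, a gene is counted here when the groups differ by at least 2-fold. In the Sox9 gate 4 of the 5 genes could be counted and 3 were higher at D6 (Kit, Cxcl12, and Ackr3) and 0 lower, where 28.9% of all 9604 genes were higher and 8.25% lower. In the Pdgfra gate 4 could be counted and all 4 were higher, Kitl with those 3, against 28.4% of genes higher and 6.79% lower. In the Upk3b gate 2 could be counted, of which Kitl was higher, against 25% higher and 5.66% lower. Cxcr4 fell under the limits in each of these gates.

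Higher levels at D6 were thus common among all genes, and the sizes are given beside that. Ackr3 and Kit in the Pdgfra gate, at 18.6-fold and 9.95-fold, were past 8-fold, as were 2.55% of genes. The median log2 ratio over all genes was 0.35 in the Sox9 gate, 0.33 in the Pdgfra gate, and 0.32 in the Upk3b gate, and TMM factors lowered every ratio by 0.33, 0.23, and 0.26. With them 58.0%, 65.8%, and 62.1% of the counted genes were higher at D6, where total UMIs gave 77.8%, 80.7%, and 81.6%, and the same members were counted. Kitl in the Sox9 gate was then lower at D6, by -0.35 (-0.54 to -0.16).

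**Figure D3:**
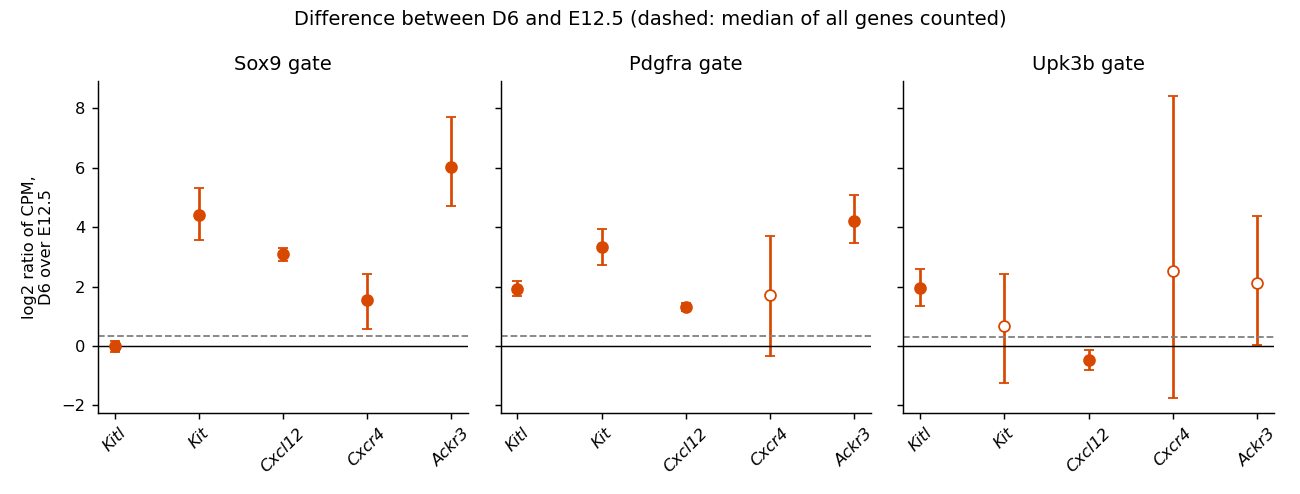
Log2 ratio of D6 to E12.5 in CPM (vertical axis) for each gene in 3 marker gates, with exact 95% intervals for counting error; open points rest on fewer than 20 UMIs, and the dashed line is the median over all genes counted. In the Sox9 gate Ackr3, on 5 UMIs at E12.5, lies at 6.03 and Kit at 4.40, above the median of 0.35, and Kitl lies at -0.02. The share of all genes with differences of that size was not counted in the Sox9 gate.

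The same counts were made between cells of 1 library. Between the germ gate and all other cells at E11.5, 4 of the 5 genes could be counted: Kit and Cxcr4 were higher, where 16.1% of genes were, and Kitl and Cxcl12 were lower, where 26.1% were. At E12.5 Kit was higher, against 16.3% of genes, and Kitl and Cxcl12 were lower, against 28.6%. TMM factors raised the 2 sets of ratios by 0.12 and 0.27, left the same members counted, and moved the part of counted genes that were higher from 38.1% to 43.8% at E11.5 and from 36.4% to 48.0% at E12.5. Cxcr4 at E12.5 was under the limit of 10 CPM. Ackr3 was under it at both stages, with 0 against 1.95 CPM at E11.5 and 0.35 against 1.61 at E12.5, the lower value in the germ gate as for the ligands.

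Between Sox9-only and Pdgfra-only cells of E12.5, Kitl was higher, where 11% of genes were, and Cxcl12 was lower, where 8.9% were. At D6 Kitl was higher, against 5.91% of genes, and 0 of 4 were lower, against 4.29%. Cxcl12 was 14.5 CPM in Sox9-only and 93.7 in Pdgfra-only cells at E12.5, and 208 and 194 at D6, where it did not differ beyond counting error.

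Ligand and receptor UMIs were also compared within cells, which is limited by depth since a cell with more UMIs shows more genes. A Kitl UMI was found in 16 of the 327 Kit-positive cells of E12.5, 4.89% (2.82 to 7.82), and in 30.2% of Kit-negative cells, although the Kit-positive cells were deeper, with a median of 18747 against 10313 UMIs. At E11.5, 15 of 136 Kit-positive cells held Kitl, against 32.7% of the Kit-negative ones. Outside the germ gate the contrast was smaller, with 13 of 42 cells, 31.0% (17.6 to 47.1), against 34.0% at E11.5 and 8 of 38, 21.1% (9.55 to 37.3), against 32.2% at E12.5. At E10.5 and D6 the order was turned. At E10.5, 24 of 119 Kit-positive cells, 20.2% (13.4 to 28.5), held a Kitl UMI, against 12.7% of Kit-negative cells, at a median of 9800 and 8119 UMIs. At D6, 96 of 215 Kit-positive cells, 44.7% (37.9 to 51.6), held a Kitl UMI, and 26.8% of Kit-negative ones, with a median of 5211 and 4559 UMIs. Within the Sox9 gate of D6 the shares were 47.6% and 48.0%, so the excess was not seen there, and within the Pdgfra gate they were 49.2% and 21.7%.

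The 2 ligands were also set against each other. In the Sox9 gate of E12.5 a Kitl UMI was found in 44 of 160 Cxcl12-positive cells, 27.5% (20.7 to 35.1), and in 70.2% of Cxcl12-negative cells, at a median of 12252.5 and 10673 UMIs. The Sox9 gate of E11.5 gave the same order, with 43.1% (34.4 to 52.0) and 59.7%. That of E10.5 gave the other order, with 19.7% (16.1 to 23.6) and 11.3%. Over all cells the shares were 20.9% (18.8 to 23.3) of 1299 Cxcl12-positive cells and 8.79% of Cxcl12-negative cells at E10.5. They were 23.0% and 33.8% at E11.5 and 14.4% and 32.2% at E12.5. At D6 the shares over all cells were 29.0% (25.9 to 32.2) and 28.2%, with 30.4% and 18.9% in the Pdgfra gate and 42.9% and 52.2% in the Sox9 gate.

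Cxcl12 and its signalling receptor were rarely found in the same cell. From E10.5 to E12.5 a Cxcl12 UMI was present in 4 of 33, 4 of 90, and 1 of 105 Cxcr4-positive cells, and at D6 in 4 of 60, where Cxcr4-negative cells gave 34.0%, 23.6%, 29.5%, and 37.0%. Cxcl12 was found in 24.3% (19.1 to 30.1), 22.2% (10.1 to 39.2), and 20.0% (9.05 to 35.6) of Ackr3-positive cells in the gonads. The shares in Ackr3-negative cells were 34.5%, 22.8%, and 28.5%. Within the Sox9 gate the shares were 28.3% against 60.1% at E10.5, 33.3% (11.8 to 61.6) against 16.6% at E11.5, and 2 of 5 cells against 17.6% at E12.5. Within the Pdgfra gate they were 32.6% against 41.2%, 33.3% against 35.8%, and 20.0% against 45.1%. At D6 104 of 144 Ackr3-positive cells, 72.2% (64.2 to 79.4), held a Cxcl12 UMI, against 33.8% of Ackr3-negative cells, at a median of 5230 and 4570 UMIs. The excess was also present within the Sox9 gate, 71.4% against 42.0%, and within the Pdgfra gate, 74.1% against 44.7%.

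Within the germ gate the share of cells with Kit was close in cells with and without Cxcr4. Of 67 Cxcr4-positive germ-gate cells at E12.5, 43 held a Kit UMI, 64.2% (51.5 to 75.5), and of Cxcr4-negative ones 64.1%. At E11.5, 18 of 37 held it, 48.6% (31.9 to 65.6), against 47.8%.

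**Figure D4:**
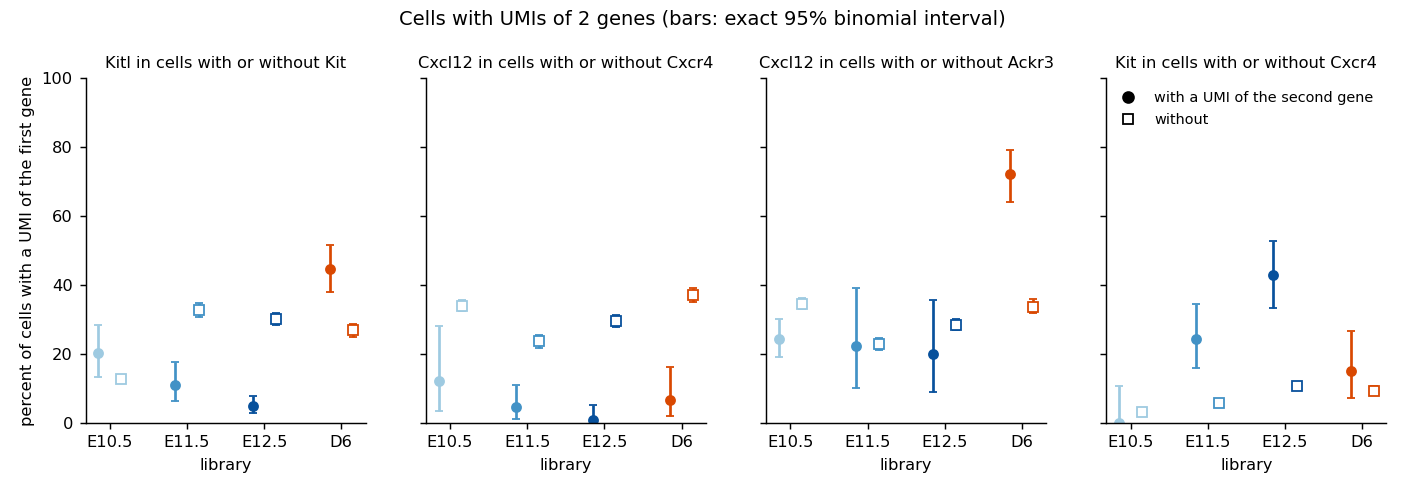
Percent of cells with a UMI of the first gene named (vertical axis) among all retained cells that hold a UMI of the second gene (filled circles) and those that do not (open squares), by library, with exact 95% binomial intervals. The 72.2% of Ackr3-positive cells of D6 with Cxcl12 stand above 33.8%, and the 4.89% of Kit-positive cells of E12.5 with Kitl stand below 30.2%.

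The genes that act after KIT were taken from a list of 18, among them the adaptors Grb2 and Shc1, the phosphatases Ptpn6 and Ptpn11, and the PI3 kinase subunits Pik3r1 and Pik3ca. In the germ gate 12 of them could be counted in each stage. At E11.5 1 was higher, Ptpn6, and 5 were lower (Shc1, Pik3r1, Src, Stat3, and Socs1), where 16.1% of all genes were higher and 26.1% lower, and the median log2 ratio was -0.25 where it was -0.09 over all genes. At E12.5 Ptpn6 was again higher and 5 were lower, against 16.3% and 28.6% of all genes, with a median of -0.54 against -0.13. Grb2 was 50.2 CPM in the germ gate and 53.2 in other cells at E12.5, a log2 ratio of -0.09 (-0.24 to 0.07), and Pik3r1 was 4.23 and 39.5 at E11.5, a log2 ratio of -3.22 (-4.14 to -2.44).

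At D6 the same list stood higher than at E12.5. In the Sox9 gate 8 of 12 were higher and 0 lower, with a median log2 ratio of 1.41, in the Pdgfra gate 9 of 13 and 0, with 1.29, and in the Upk3b gate 7 of 12 and 1, with 1.25. Over all genes 28.9%, 28.4%, and 25% were higher and 8.25%, 6.79%, and 5.66% lower, with the medians of 0.35, 0.33, and 0.32 given above. Pik3r1, the regulatory subunit of PI3 kinase, was 146 CPM in the Sox9 gate of D6 and 17.2 at E12.5, and Ptpn11 was 84.5 and 61.1. Between Sox9-only and Pdgfra-only cells, Ptpn6 and Src were higher and Shc1 and Pik3r1 lower of 11 at E12.5, and 1 of 13, Gab2, was lower at D6, with medians of 0.22 and -0.11. Over all genes 11% and 5.91% were higher and 8.9% and 4.29% lower at E12.5 and D6, with medians of -0.07 and 0.01.

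Of 15 genes of CXCR4 signalling, 10 could be counted in the germ gate at each stage. Arrb2, which codes for a β-arrestin, and Prkcz were higher at both, and 2 were lower at E11.5 (Gnai3 and Gng2) and 4 at E12.5 (with Gnai1 and Gnai2). These counts are near the shares of all genes, 16.1% and 16.3% higher and 26.1% and 28.6% lower. Gnai3, a Gi subunit through which the receptor signals, was 25.8 CPM in the germ gate and 101 in other cells at E12.5, while Gnb1 was 277 and 249. Between D6 and E12.5 3 of 11 were higher and 1 lower in the Sox9 gate, 2 and 1 in the Pdgfra gate, and 2 and 0 in the Upk3b gate, with median log2 ratios of 0.39, 0.47, and 0.16, close to those of all genes. Over all genes 28.9%, 28.4%, and 25% were higher at D6 in these gates and 8.25%, 6.79%, and 5.66% lower. Between Sox9-only and Pdgfra-only cells, 2 of 8 were lower at E12.5 (Gng2 and Arrb2) and 0 of 11 differed at D6. Over all genes 8.9% were lower at E12.5, and 5.91% were higher and 4.29% lower at D6.

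Adam17, whose protease can shed KITL, was the only countable gene of 3 on the shedding list, at 33.6 CPM in the Sox9 gate of D6 and 15.8 at E12.5. It was thus at least 2-fold higher at D6 in that gate, as were 28.9% of all genes, but not in the Pdgfra or Upk3b gate. It differed by under 2-fold between the germ gate and other cells at E11.5 and E12.5. Of 10 related ligands and receptors, 1 to 4 could be counted per comparison: Mif, a ligand of CXCR4 and CD74, was 1945 CPM in the germ gate and 1957 in other cells at E11.5, with a log2 ratio of -0.01 (-0.05 to 0.03), and the cytokine gene Csf1 was higher at D6 than at E12.5 in the Sox9 gate, with 15.6 and 0.56 CPM, and in the Pdgfra gate, with 14.1 and 0.63. With Calcrl it made 2 of 3 countable genes higher in the Sox9 gate and 2 of 4 in the Pdgfra gate. In the Upk3b gate 0 of 1 were higher, where 28.9%, 28.4%, and 25% of all genes were higher in these 3 gates. Adm was lower in the germ gate at E11.5, as 1 of 2 countable genes, where 26.1% of all genes were lower. It was also lower in Sox9-only than in Pdgfra-only cells of E12.5, again as 1 of 2, where 8.9% were. In the germ gate of E12.5 0 of 1 differed, where 16.3% of all genes were higher and 28.6% lower. Between Sox9-only and Pdgfra-only cells of D6 0 of 3 differed, against 5.91% and 4.29%.

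The 8 other genes of PGC migration and survival, of which Dnd1 and Nanos3 are also among the germ cell markers, could all be counted in the germ gate. Cdh1, Nanos3, Bax, and Dnd1 were higher at both stages. Itgb1 and Itga6, which code for integrin chains, were lower at both, and Bcl2l1 at E11.5. Over all genes 16.1% and 16.3% were higher and 26.1% and 28.6% lower, and the median log2 ratios were 0.83 and 0.95 for the list and -0.09 and -0.13 for all genes. Dnd1, an RNA-binding protein that PGCs need to survive, was 134 CPM in the germ gate of E12.5 and 4.58 in other cells. Between D6 and E12.5, 6 of the 8 could be counted in each gate. At D6 2 were higher in the Sox9 gate (Nanos3 and Tial1) and 4 in the Pdgfra and Upk3b gates (with Itgb1 and Itga6), and 0 were lower. Over all genes 28.9%, 28.4%, and 25% were higher and 8.25%, 6.79%, and 5.66% lower in these gates. The median log2 ratios were 0.80, 1.12, and 1.50 for the list and 0.35, 0.33, and 0.32 for all genes.

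The genes whose levels were most like each member were named by the Pearson correlation of log2(CPM + 10) over the 18 gates of at least 20 cells, among 9396 genes with at least 20 CPM in 1 of them. These gates share libraries and cells, so the values are descriptions. For Kit the nearest genes were Slc23a2 (r = 0.95), Hltf (0.93), and Abl2 (0.91), for Kitl Tacc1 (0.95), Gatad1 (0.91), and Reep3 (0.90), and for Cxcl12 Tpm2, Guf1, and Clmp (0.96, 0.96, and 0.95). For Ackr3 they were Hoxa3, Nefl, and Edil3 (0.94, 0.93, and 0.93), and for Cxcr4 2900026A02Rik, Fzd6, and Ammecr1 (0.93, 0.92, and 0.91). Without the Cdh5 gate of D6, where Kit and Cxcr4 were highest, the Cxcr4 values were 0.76, 0.74, and 0.82, and those of the other members stayed at 0.87 or more.

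Among the members themselves, Kit and Cxcr4 were the most alike, with r = 0.79, or 0.66 without that gate. Ackr3 and Cxcl12 gave 0.57, or 0.67 without it. Each ligand and its signalling receptor were far less alike, with 0.15 for Kitl and Kit, or -0.19 without that gate, and -0.34 for Cxcl12 and Cxcr4, or -0.57 without it.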

How the data were processed

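The files held deposited UMI counts per gene and cell, whole numbers that the authors made from 10x Genomics 3′ libraries (v2 kit for gonads, v3 for D6) with Cell Ranger on mm10. The submitters' processing notes give version 3.0.2 and the matrix headers 6.0.0. Barcodes deposited numbered 4473, 2449, 3176, and 2441 for E10.5, E11.5, E12.5, and D6. Cells were kept by the limits in the study's methods, which were 1000 to 4000 detected genes and under 10% UMIs of the 13 mitochondrial genes for E10.5, 500 to 5000 and 20% for E11.5, 2000 to 5000 and 8% for E12.5, and 1000 to 4000 and 12% for D6. The kept cells held 32508523, 24625441, 34173977, and 11906360 UMIs in the same order, which sets the precision. Doublets were left in. The automatic Scrublet limit marked 0.0782%, 2.48%, 0.904%, and 0.263% of cells in that order, where 3.07%, 1.68%, 2.21%, and 1.83% were expected, and removal at the expected rate was an alternative.

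Raw counts were summed over the cells of each gate and scaled by all UMIs of those cells. No cluster or cell type was assigned. Levels have exact Poisson intervals, shares exact Clopper-Pearson intervals, and log2 ratios exact conditional binomial intervals, all at 95% and for counting error only, with 3 UMIs as the limit that a count of 0 allows. A fold against a group at 0 was set against that limit. The interval of a ratio takes its 2 counts as independent. Between gates of 1 library that share cells it is therefore approximate. Shares were repeated after each cell was thinned to 2000 UMIs (seed 17), with shallower cells left out. The calculation was tested on simulated counts. Intervals came from scipy 1.17.1, sums from numpy 2.4.6 with pandas 2.3.3 under Python 3.11.15, and drawings from matplotlib 3.10.9, with scanpy 1.11.5 for Scrublet scores and edgeR 4.0.16 in R 4.3.3 for TMM factors.

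The members, gene lists, and gates were chosen with earlier results of these data known. The 5 members are given in every library and gate, the listed genes by how many differ by 2-fold with up to 4 examples of the most UMIs, and for each member the 3 genes of highest correlation. Positions come from the GRCm38 annotation, in which 99.6% of the feature identifiers were found, and promoters from RefSeq, in which all 5 members were found. Alternatives were stricter gates (2 UMIs of a marker, or all 3 germ genes), gates without shared cells, 1 set of cell limits for all libraries (1000 to 5000 genes, under 10% mitochondrial), removal of the cells with the highest Scrublet scores at 0.8% per 1000 cells, TMM factors, totals without mitochondrial, haemoglobin, and ribosomal protein genes, a mean over cells, and 2 UMIs as positive.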

Additional observations from a re-analysis of the deposited data

Results flagged for a closer look

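The values here are log2 ratios that take opposite signs, with intervals off 0, in different libraries or gates, and none of these differences was tested, since each rests on 1 library. Gates of 1 library share cells, so the intervals of ratios between them are approximate.

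Kitl in the Sox9 gate was above the Upk3b gate at E11.5, E12.5, and D6, by 2.19, 3.78, and 1.81, and below it at E10.5, by -0.46. The Pdgfra gate was above the Upk3b gate by 0.99, 0.89, and 0.86 in the same 3 libraries and below it at E10.5, by -0.64. Between E11.5 and E12.5 Kitl was higher at the later stage in the Sox9 gate, by 0.20 with total UMIs, or 0.10 (-0.01 to 0.21) with TMM factors. It was lower in the Pdgfra gate, by -1.50, and in the Upk3b gate, by -1.39.

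Cxcl12 in the Sox9 gate was above the Pdgfra gate at E10.5, by 0.45, and below it at E11.5 and E12.5, by -1.12 and -1.62. Against the Upk3b gate it was higher at E10.5 and D6, by 1.19 and 1.71, and lower at E11.5 and E12.5, by -1.003 and -1.84. The Pdgfra gate was above the Upk3b gate at E10.5 and D6, by 0.74 and 1.57, and below it at E12.5, by -0.22. In cells of 1 gate alone the Pdgfra and Upk3b levels were 107 and 97.1 CPM at E10.5, 92.2 and 98.0 at E12.5, and 201 and 64.7 at D6. Without shared cells these gates thus lay close to each other at E10.5 and E12.5. From E12.5 to D6 the chemokine was higher in the Sox9 and Pdgfra gates, by 3.09 and 1.32, and lower in the Upk3b gate, by -0.47.

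Ackr3 was lower in the Sox9 and Pdgfra gates than in the Upk3b gate at E10.5, by -0.96 and -1.27, and higher than in it at D6, by 2.69 and 2.40.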

How the results depend on the processing

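Of 167 values of 24 log2 ratios under 7 alternatives, 143 moved by less than their counting error and 0 changed sign where the main interval lay off 0. Common cell limits, Scrublet removal, and totals without mitochondrial, haemoglobin, and ribosomal UMIs moved 0 beyond it. Stricter gates moved Kitl of D6 over E12.5 in the Sox9 gate from -0.02 to -0.29. Gates without shared cells moved it to -0.38, Cxcl12 and Ackr3 in the Pdgfra gate to 1.12 and 3.37, Kitl in the Upk3b gate to 2.80, and Kitl in the Sox9 over the germ gate of E12.5 to 8.16. TMM factors moved the first to -0.35 and Cxcl12 in the Pdgfra gate to 1.09. A mean over cells moved Kit in the germ gate of E11.5 to 4.24. For 13 ratios added after seeing the data, stricter gates gave 5.78 for Kit of D6 over E12.5 in the Sox9 gate, -1.74 for Kitl of E12.5 over E11.5 in the Pdgfra gate, 3.71 for Cxcl12 of D6 over E12.5 in the Sox9 gate, and -3.97 for that of E12.5 over E10.5. Gates without shared cells gave 4.44 and -4.09 for those Cxcl12 ratios, 4.02 for Kit in the Pdgfra gate, and 0.36 for Kitl of E12.5 over E11.5 in the Sox9 gate, and no ratio for Kit in the Sox9 gate, which had 0 UMIs at E12.5. TMM factors gave 2.76 for Cxcl12 of D6 over E12.5. Of the 6 other moved values of added ratios, the report gives 5 beside their results, and stricter gates gave -0.27 for Cxcl12 of D6 over E10.5 in the Sox9 gate. The cause was not tested. Few UMIs limit Cxcr4 and Ackr3, and few cells, 21 to 59, the Cdh5 gates. No paired analysis was possible because each condition has 1 library.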
